A study of Homo sapiens with 3 samples.

Results

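Mitochondria-rich cells were defined here as cell barcodes with at least 1000 detected genes and more than 20% of their UMIs from the 13 protein-coding genes of the mitochondrial genome, whose symbols begin with MT-. A UMI is a molecular tag that lets each captured RNA molecule be counted once. The rule was met by 495 of 7121 barcodes with at least 1000 genes, and the remaining 6626 barcodes, at or under 20%, are called the other cells. The CD49a-positive library held 130 mitochondria-rich cells of 2524 (5.15%, 95% interval 4.32 to 6.09%), the CD49a-negative library 178 of 2154 (8.26%, 7.14 to 9.51%) and the unsorted library 187 of 2443 (7.65%, 6.63 to 8.78%). Intervals on shares are exact binomial (Clopper-Pearson) intervals at 95%, intervals on sums of UMIs are exact Poisson intervals at 95%, and both cover counting error only.

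The islets were differentiated from HUES8, a long-established embryonic stem cell line of human origin. Magnetic beads carrying an antibody to CD49a, an integrin subunit on the cell surface, gave a CD49a-positive and a CD49a-negative fraction. Both fractions and unsorted cells were re-aggregated and kept for 7 days, then dispersed with the enzyme mix TrypLE for droplet single-cell RNA sequencing. There were 3 libraries, 1 per group, all from 1 cell line, so no difference has a replicate check, no test was made, and cells of a library are not replicates. The libraries held 127119509 UMIs over 4512 barcodes (CD49a-positive), 88397368 UMIs over 2566 barcodes (CD49a-negative) and 114479071 UMIs over 2811 barcodes (unsorted). Pairs of libraries shared 2 to 6 barcode sequences, and no barcode was mitochondria-rich in both libraries of a pair.

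A mitochondrion carries its own small circular genome, which encodes subunits of the respiratory chain and of ATP synthase, while most mitochondrial proteins are encoded in the nucleus and imported. Transcripts of the mitochondrial genome stay inside the organelle behind its membranes, whereas most other messenger RNA is free in the cytoplasm or still in the nucleus. In dispersed tissue a high mitochondrial share is commonly used as a sign of a damaged cell, and in endocrine cells, which make and secrete hormone at high energy cost, it can also be a property of a cell type.

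The cells were selected on this share, so it is given only as a description. It ran between 20.01 and 87.3% with a median of 30.9% in mitochondria-rich CD49a-positive cells, between 20.2 and 81.2% with a median of 30.6% in CD49a-negative ones, and between 20.1 and 85.4% with a median of 29.4% in unsorted ones. The medians of the other cells were 7.65% (CD49a-positive), 6.89% (CD49a-negative) and 7.14% (unsorted). Of the mitochondria-rich cells, 63, 86 and 99 of these libraries lay between 20 and 30%, 39, 60 and 49 between 30 and 50%, and 28, 32 and 39 above 50%. There was no gap at the limit. Between 20 and 21% there were 18 CD49a-positive, 12 CD49a-negative and 17 unsorted cells, with median totals of 22461, 21214 and 40097 UMIs. Between 19 and 20% there were 8, 23 and 23 cells, with medians of 59792, 26909 and 38421 UMIs.

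What set the mitochondria-rich cells apart in absolute counts was few UMIs from nuclear genes, while their mitochondrial counts were somewhat higher in the median. The median mitochondrial count per cell was 4150 UMIs in mitochondria-rich CD49a-positive cells against 3717 UMIs in the other cells, 3583.5 against 2526.5 UMIs in the CD49a-negative library, and 3710 against 3109.5 UMIs in the unsorted library. The median count from all other genes was 7426.5 UMIs in mitochondria-rich CD49a-positive cells against 44848.5 UMIs in the other cells, 7110 against 34097.5 UMIs in the CD49a-negative library, and 6949 against 38999 UMIs in the unsorted library. The mitochondrial median was further apart in some subsets. It was 5367, 4518 and 5292 UMIs in the 3 libraries for cells between 20 and 30%. In enterochromaffin-like cells, a class described below, it was 4937 against 2372 UMIs in the CD49a-negative library. The few alpha-like ones, 2, 3 and 3 cells, had 14441, 9887 and 9209 UMIs against 2965, 2312 and 2569 UMIs. Genes detected followed the same order as nuclear-gene counts, with medians of 3351, 3403.5 and 3352 in the mitochondria-rich cells of the 3 libraries and 8293, 7680 and 7979 in the other cells. The total count is the denominator of the share that chose the cells, so these medians are no finding independent of the rule. Single cells varied widely. Nuclear-gene counts of mitochondria-rich cells ran from 1248 to 94635 UMIs (CD49a-positive), from 1247 to 63262 UMIs (CD49a-negative) and from 1202 to 72844 UMIs (unsorted).

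**Figure D1:**
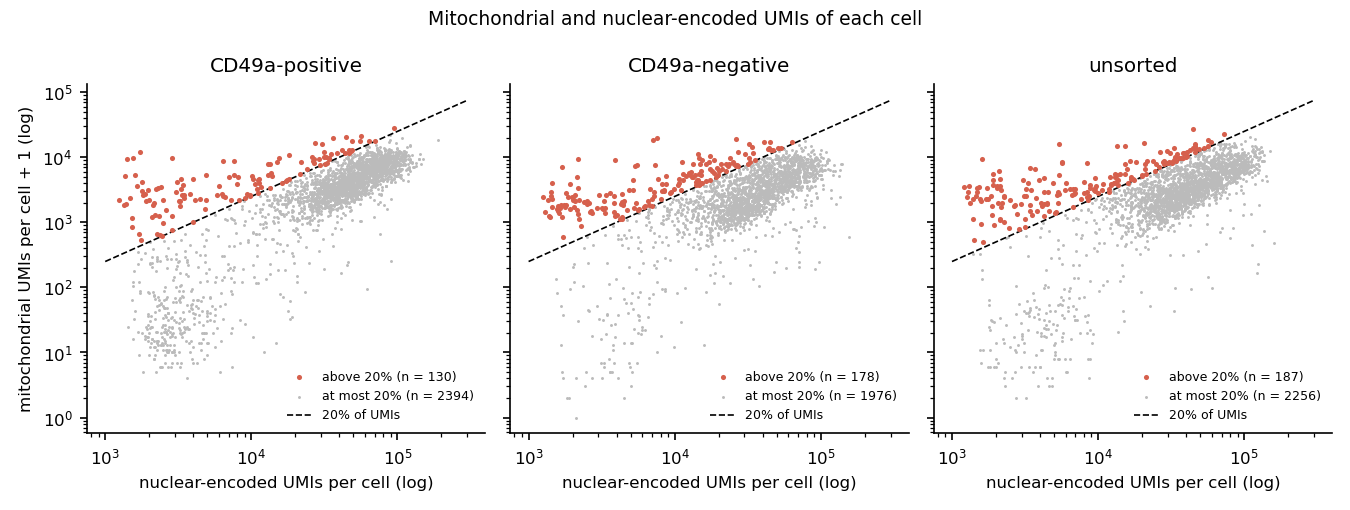
UMIs from the 13 mitochondrial genes plus 1 (vertical axis, log scale) against UMIs from all other genes (horizontal axis, log scale), 1 point per cell with at least 1000 detected genes and 1 panel per library. Mitochondria-rich cells lie above the dashed 20% line, at mitochondrial counts like those of many other cells and mostly at fewer than 10000 UMIs from other genes.

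Among the mitochondria-rich cells, median depth was lower in bins of higher share, and the total count is the denominator of that share. Those between 20 and 30% had median totals of 22111, 19052 and 21777 UMIs in the CD49a-positive, CD49a-negative and unsorted libraries, against 6586, 6418 and 6368 UMIs between 30 and 50%, and 5980, 4368 and 5359 UMIs above 50%. The cells between 20 and 30% therefore supplied 78.4, 74.5 and 83.3% of all nuclear-gene UMIs of the mitochondria-rich cells in these libraries. Summed levels below rest mostly on them. Levels are in CPM, which here means UMIs of a gene per 1000000 UMIs of all genes outside the mitochondrial genome, summed over the cells of a group in 1 library. The sums held 1909535, 2088351 and 2583659 UMIs for mitochondria-rich cells, and 112038808, 77925645 and 101218617 UMIs for other cells. Log2 ratios are of mitochondria-rich over other cells after 10 CPM was added to each level, so ratios of low genes come out smaller than they are.

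Cell identity was read from clusters made without the mitochondrial genes, over all 7121 cells, and named from marker lists. Enterochromaffin-like cells, the serotonin-making cell type that stem cell-derived islets hold beside their hormone cells, were the class most often mitochondria-rich in the CD49a-negative and unsorted libraries. Of them, 15.6% (72 of 461, 12.4 to 19.3%) passed 20% in the CD49a-negative library and 16.8% (88 of 524, 13.7 to 20.3%) in the unsorted library, against 6.60% (7 of 106, 2.70 to 13.1%) in the CD49a-positive library. Beta-like cells, named for insulin and other beta markers, passed 20% in 5.32% (46 of 864, CD49a-positive), 8.96% (24 of 268, CD49a-negative) and 7.31% (32 of 438, unsorted). Clusters numbered 0 and 2, of 755 and 956 cells, scored highest for beta markers but got no class name, so these shares leave them out. In the same order of libraries, 2.85, 5.185 and 4.27% of cluster 0 and 2.79, 1.02 and 3.21% of cluster 2 passed the limit. Alpha-like cells, named for glucagon and its partners, passed it in 2.33% (2 of 86), 1.04% (3 of 288) and 1.29% (3 of 232). In the CD49a-negative and unsorted libraries the intervals of the enterochromaffin-like share did not overlap those of the alpha-like share, whose upper bounds were 3.01% and 3.73%. The beta-like interval was 5.82 to 13.03% in the CD49a-negative library, which overlapped the enterochromaffin-like one, and 5.05 to 10.2% in the unsorted library, which did not. In the CD49a-positive library the intervals of all 3 classes overlapped.

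**Figure D2:**
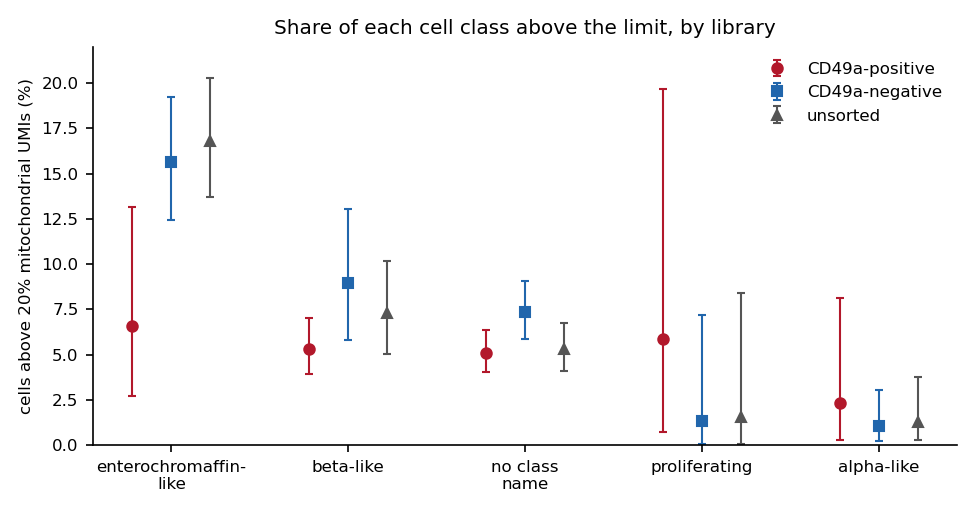
Percent of the cells of each class with more than 20% mitochondrial UMIs, by library, with exact binomial 95% intervals that cover counting error only. In the CD49a-negative and unsorted libraries enterochromaffin-like cells stand at 15.6% and 16.8%, above alpha-like cells at 1.04% and 1.29%.

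Seen from the side of the mitochondria-rich cells, enterochromaffin-like cells made up 5.39% of them in the CD49a-positive library against 4.14% of the other cells, 40.4% against 19.7% in the CD49a-negative library, and 47.1% against 19.3% in the unsorted library. Beta-like cells made up 35.4% against 34.2%, 13.5% against 12.3%, and 17.1% against 18.0% in the same order of libraries. Alpha-like cells made up 1.54% against 3.51%, 1.69% against 14.4%, and 1.60% against 10.2%. Cells without a class name were a large part of both groups, at 56.2% against 56.85%, 43.8% against 49.8%, and 33.7% against 49.7%. The named classes are therefore only part of the makeup. The enterochromaffin-like excess came from 1 cluster of the 3 that bear this name. That cluster, numbered 10, held 161 of the 167 enterochromaffin-like mitochondria-rich cells and had a median share of 12.3% over all its cells, against 6.80% and 6.07% in the other two. Its leading genes include SLIT3, STAC and COL5A2, which also stood higher in mitochondria-rich cells as a whole. The part of the class makeup in those levels was not tested beyond the values within classes given below.

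A second cluster, numbered 14, was made up almost wholly of mitochondria-rich cells, although mitochondrial genes had not been used to form it. It held 31 of 35 such cells in the CD49a-positive, 20 of 21 in the CD49a-negative and 22 of 24 in the unsorted library, with a median total of 4254 UMIs. It took 64.3, 28.1 and 35.9% of the cells above 50% mitochondrial UMIs in these libraries and no class name could be given to it. Its leading gene was MTRNR2L12, a nuclear gene on chromosome 3 that is a near copy of the mitochondrial 16S ribosomal RNA gene. Counts of such copies are uncertain, because reads of the mitochondrial transcript can be placed on them. MTRNR2L12 stood at 30.4, 40.7 and 38.7 CPM in the mitochondria-rich cells and 4.21, 6.08 and 7.45 CPM in the other cells. MLXIPL and RYR1, described below, were also among the leading genes of this cluster.

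By leading hormone, the gene with the most UMIs among INS, GCG, SST, TPH1, GHRL and PPY, INS led in most mitochondria-rich cells. It led in 91.5% of them in the CD49a-positive library (119 of 130, 85.4 to 95.7%) against 85.7% of the other cells, in 70.8% (126 of 178, 63.5 to 77.4%) against 51.8% in the CD49a-negative library, and in 88.2% (165 of 187, 82.7 to 92.5%) against 65.6% in the unsorted library. GCG, the glucagon gene, led in 6.92% against 11.5%, 17.4% against 32.5%, and 5.35% against 23.4%. TPH1, which encodes the first enzyme of serotonin synthesis in enterochromaffin cells, led in 0 of 130 mitochondria-rich CD49a-positive cells, which allows a share of up to 2.31% by the limit of 3 cells over the total, with an exact upper bound of 2.80%, against 0.334% of the other cells. It led in 4.49% against 7.03% in the CD49a-negative and in 2.14% against 5.05% in the unsorted library.

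The leading hormone and the class did not always point the same way. Among enterochromaffin-like cells, INS led in 57 of 72 mitochondria-rich and 241 of 389 other CD49a-negative cells, and in 82 of 88 mitochondria-rich and 310 of 436 other unsorted cells. TPH1 led in 6 of 72 against 126 of 389, and in 4 of 88 against 105 of 436. INS was found in every mitochondria-rich cell of all 3 libraries, whatever its class. It was also found in every other cell of the CD49a-positive and unsorted libraries, so this is not particular to mitochondria-rich cells. The lowest INS share of nuclear-gene UMIs in other cells was 0.0765% (CD49a-positive), 0% (CD49a-negative) and 0.018% (unsorted). Free INS RNA in the droplets can give such counts. The median count was 18203 UMIs in the mitochondria-rich and 29310 UMIs in the other enterochromaffin-like cells of the CD49a-negative library, and 12600 against 29972 UMIs in the unsorted library. The part of free RNA in the leading-hormone shares was not tested.

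Although INS led in more of them, the hormone genes took a smaller part of the nuclear-gene RNA of mitochondria-rich cells. The median log2 ratio of the 5 measured hormone genes was -0.68 (CD49a-positive), -1.50 (CD49a-negative) and -1.21 (unsorted), all 5 being below 0 in every library. They include SST, at -0.01 in the CD49a-positive library, and GHRL, which passed the filter through the other cells only and whose own value is the unsorted median, so this count gives no support. The same median over all 10435 genes at 10 CPM or more was 0.06, 0.09 and 0.09, and 23.3% of those genes stood lower in all 3 libraries by any amount. Insulin itself (INS, chr11:2159779-2161341, minus strand, GRCh38) stood at 46560, 18880 and 25410 CPM in the mitochondria-rich cells of the CD49a-positive, CD49a-negative and unsorted libraries, against 74420, 32680 and 55870 CPM in the other cells. Each library thus had less INS per nuclear-gene UMI in its mitochondria-rich cells, with log2 ratios of -0.68, -0.79 and -1.14. IAPP (chr12:21354959-21379978, plus strand) encodes amylin, the peptide that beta cells release together with insulin. Its level was 853 CPM (95% interval 812 to 895) in mitochondria-rich CD49a-positive cells against 1884 CPM in the other cells, 242 CPM (222 to 264) against 810 CPM in the CD49a-negative library, and 332 CPM (310 to 355) against 1381 CPM in the unsorted library.

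IAPP was the only gene that fell at least 2-fold in all 3 libraries, of 4344 genes with at least 50 CPM and 50 UMIs in the higher group of every library (0.023%). The 2-fold rule is one of size, not of significance. GCG stood at 7626 against 10130 CPM in the CD49a-positive library, 7978 against 27960 CPM in the CD49a-negative library and 5837 against 21860 CPM in the unsorted library. Those sums rest on few cells, since the fullest mitochondria-rich cell alone held 25.6, 17.7 and 25.6% of the GCG UMIs. SST, the somatostatin gene of delta cells, was more concentrated still, with 41.2, 23.0 and 47.7% of its UMIs in 1 cell, and gave log2 ratios of -0.01, -1.50 and -0.24. GHRL, the ghrelin gene, had 8, 1 and 8 UMIs in mitochondria-rich cells, and PPY, the pancreatic polypeptide gene, had 0, 4 and 2.

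The lower INS and IAPP levels were also present within beta-like cells alone. Within that class INS stood at 39940 CPM in mitochondria-rich against 66540 CPM in other CD49a-positive cells, at 33040 against 70260 CPM in the CD49a-negative library, and at 36680 against 64890 CPM in the unsorted library. IAPP stood at 822 against 1440 CPM, 211 against 1180 CPM, and 378 against 1718 CPM. These ratios rest on 46, 24 and 32 mitochondria-rich cells, of which 18, 7 and 11 lay in cluster 9, a beta-like cluster with a median total of 3825 UMIs, and the others in cluster 8. Cluster 9 was poor in nuclear RNA, with MALAT1 at 1777 CPM against 18278 CPM in cluster 8, and its median mitochondrial share was 0.92%. All values within beta-like cells mix both clusters, and the part of cluster 9 in them was not tested. The same beta-like cells had lower TTR, which encodes transthyretin, a hormone carrier protein made in islets, with log2 ratios of -0.77, -0.89 and -0.63. TPH1 depended on the class. It stood higher over all mitochondria-rich cells, at 93.2 against 58.2 CPM, 329 against 211.5 CPM and 355 against 178.5 CPM, but lower among enterochromaffin-like cells, at 440 against 569.5 CPM, 524 against 779 CPM and 645.5 against 720 CPM. Within beta-like cells it stood higher, at 88.05 against 52.3 CPM, 249 against 123 CPM and 168 against 131 CPM. Of the 8 measured enterochromaffin markers, 7 stood higher over all cells in every library (42.5% of all genes did). Their median log2 ratio within enterochromaffin-like cells was -0.27, -0.45 and 0.03.

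Across all genes, 2 of 4344 rose at least 2-fold in all 3 libraries (0.046%). SLIT3 (chr5:168661733-169301129, minus strand) encodes a secreted axon guidance protein. It stood at 67.6 CPM (56.4 to 80.3) in mitochondria-rich CD49a-positive cells against 19.98 CPM in the other cells, 279 CPM (257 to 303) against 76.1 CPM in the CD49a-negative library, and 260.5 CPM (241 to 281) against 66.2 CPM in the unsorted library. ANKS1B (chr12:98726457-99984654, minus strand), which encodes a scaffold protein best known from synapses, stood at 577 against 280.2 CPM, 1492 against 389 CPM and 1077 against 460.4 CPM in the same order. In the CD49a-positive library 1 cell per gene decided these calls. The fullest cell for each gene held 35.7% of the SLIT3 and 28.9% of the ANKS1B UMIs of the mitochondria-rich cells, and without it the log2 ratios were 0.85 and 0.55, under 2-fold. In the CD49a-negative and unsorted libraries the same step left log2 ratios of 1.66 and 1.76 for SLIT3 and 1.65 and 1.06 for ANKS1B. Within enterochromaffin-like cells SLIT3, one of the genes that define cluster 10, stood at 744 against 178 CPM, 562 against 258.5 CPM and 541 against 284 CPM, and its log2 ratios within beta-like cells were 0.90, 0.60 and 0.07. For ANKS1B the log2 ratios were 1.90, 1.31 and 0.31 within enterochromaffin-like cells and -0.11, 1.07 and 0.93 within beta-like cells, so neither gene kept its 2-fold size in all 3 libraries within a class. Genes under the minimum of 50 CPM could differ more. NIBAN1 stood at 42.9 against 1.31 CPM, 26.8 against 1.30 CPM and 24.8 against 1.17 CPM, on 82, 56 and 64 UMIs. Its log2 ratios were 2.23, 1.70 and 1.64. It reached 10 CPM in mitochondria-rich cells only.

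**Figure D3:**
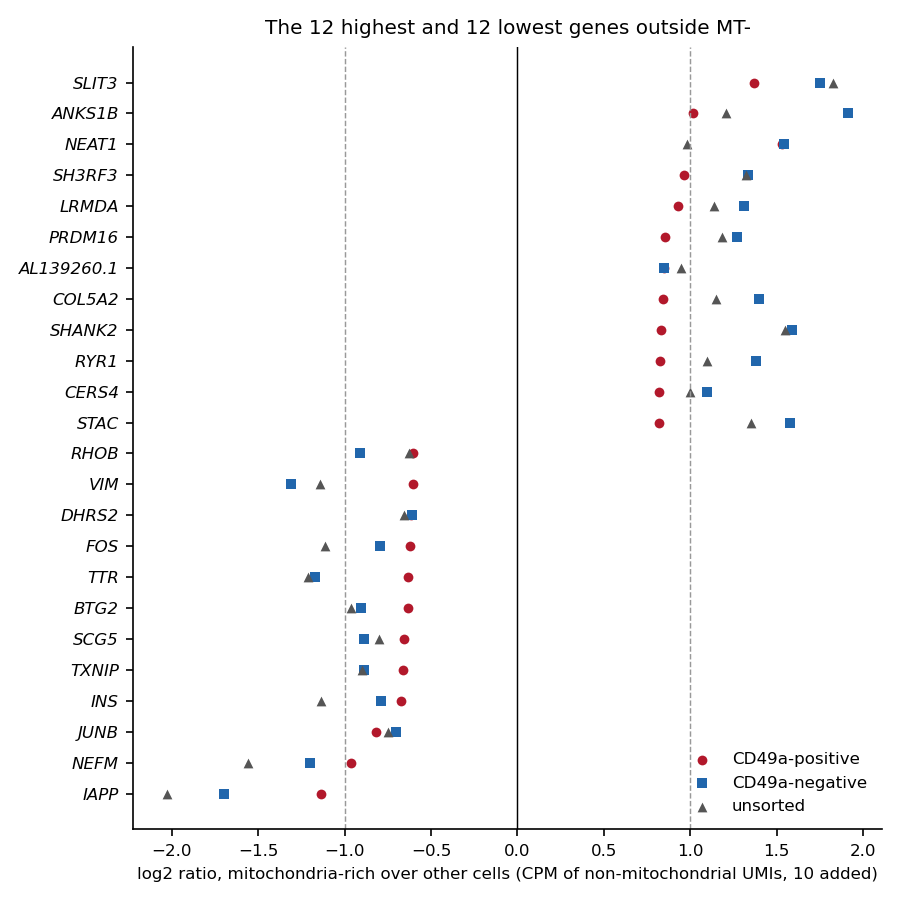
Log2 ratio of mitochondria-rich over other cells for the 12 genes highest and the 12 genes lowest in all 3 libraries, with 10 CPM added, 1 point per library. ANKS1B and SLIT3 lie at or above 1 in every library and IAPP lies below -1 in every library.

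Other genes moved the same way in all 3 libraries without meeting the 2-fold rule in each. Ranked by their smallest ratio over the 3 libraries, those on the higher side included SH3RF3, a scaffold of JNK signalling (114 against 53.8 CPM, 150 against 53.4 CPM, and 147 against 52.6 CPM), SHANK2, a postsynaptic scaffold (70.2 against 35.1, 200.2 against 60.02, and 187 against 57.4 CPM), RYR1, a calcium release channel (144 against 77.1, 215 against 76.4, and 184 against 80.6 CPM) and COL5A2, a fibrillar collagen chain that is one of the enterochromaffin markers used here (106 against 55.0, 618 against 228, and 460 against 202 CPM). On the lower side stood NEFM, a neurofilament subunit (113 against 230 CPM, 51.7 against 131.5 CPM, and 55.7 against 184 CPM), JUNB, an immediate early transcription factor, SCG5, a chaperone of prohormone convertase 2 (519.5 against 825, 407.5 against 762, and 452.5 against 796 CPM), and VIM, the intermediate filament vimentin (102 against 160, 238.5 against 605, and 145 against 332 CPM).

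Gene length differed between the 2 sides. At a looser size of 1.5-fold in all 3 libraries, chosen after the values were seen, 85 of 10435 genes stood higher (0.815%) and 22 lower (0.211%). Of the 84 higher genes with a known position, 37 (44.0%) spanned at least 200 kb, with a median length of 180 kb, against 11.6% and 42.7 kb over all measured genes. None of the 22 lower genes was that long, their median was 6.78 kb, and 13 of them (59.1%, against 15.2% of all genes) were shorter than 10 kb. Some higher genes passed the 10 CPM filter through mitochondria-rich cells only, so these counts give no support. NIBAN1 and MTRNR2L12, the copy of a mitochondrial RNA gene named above, did so in all 3 libraries, and ADAMTSL3 did so in the CD49a-positive library. The median log2 ratio over genes of at least 200 kb was 0.19 (CD49a-positive), 0.46 (CD49a-negative) and 0.31 (unsorted), and over genes under 10 kb it was -0.09, -0.29 and -0.15. Genes of at least 200 kb took 22.4% of nuclear-gene UMIs in mitochondria-rich CD49a-positive cells against 19.8% in the other cells, 25.04% against 16.5% in the CD49a-negative library, and 24.4% against 18.75% in the unsorted library. The files do not separate intronic from exonic UMIs, so unspliced RNA was not measured.

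RNAs known to stay in the nucleus stood a little higher in mitochondria-rich cells. MALAT1, an abundant non-coding RNA of nuclear speckles, stood at 17550 CPM in mitochondria-rich CD49a-positive cells against 15140 CPM in the other cells, 19550 against 15770 CPM in the CD49a-negative library, and 18160 against 16180 CPM in the unsorted library. That is a difference of at most 0.31 on the log2 scale in sums. In the median cell MALAT1 took 1.12% against 1.43% of nuclear-gene UMIs in the CD49a-positive library, 1.61% against 1.60% in the CD49a-negative library, and 1.42% against 1.61% in the unsorted library, so the higher sums were not a property of the typical mitochondria-rich cell. By share, MALAT1 was highest between 30 and 50% mitochondrial UMIs, at 21190, 22290 and 22480 CPM, and lowest above 50%, at 8030, 13810 and 11180 CPM.

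NEAT1 (chr11:65422774-65445540, plus strand), the RNA scaffold of paraspeckles, differed more. It stood at 74.4 against 19.2 CPM in the CD49a-positive library, 123 against 35.8 CPM in the CD49a-negative library and 50.3 against 20.5 CPM in the unsorted library, with log2 ratios of 1.53, 1.54 and 0.98. In the CD49a-positive library 36.6% of these UMIs came from 1 cell, and without it the ratio was 0.98. NEAT1 also stood higher within beta-like cells, with log2 ratios of 0.99, 1.22 and 1.33 on 30, 20 and 25 UMIs. Of the 10 nuclear-retained RNAs listed, 6 were measured, and 5 of them stood higher in all 3 libraries, as 42.5% of all measured genes did. The list median was 0.30, 0.66 and 0.51. The other 4, MEG3, MEG8, MEG9 and PVT1, had at most 4 UMIs each in the mitochondria-rich cells of a library.

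Ribosomal protein and housekeeping genes, read as cytoplasmic messenger RNAs, had lower list medians in the CD49a-negative and unsorted libraries. In the CD49a-positive library both medians lay near those of the other cells. The counts below are to be set beside all measured genes, of which 42.5% stood higher and 23.3% lower in all 3 libraries. Of 38 ribosomal protein genes, 4 stood higher and 14 lower in all 3 libraries, with a median log2 ratio of 0.08, -0.32 and -0.12. Of 19 housekeeping genes, none stood higher and 12 stood lower in all 3 libraries, with a median of -0.04, -0.45 and -0.19. Per cell the spread was wide. Ribosomal protein genes took between 0.203 and 17.9% of the nuclear-gene UMIs of mitochondria-rich CD49a-positive cells, with a median of 3.01% against 3.73% in the other cells, and the medians were 1.48% against 3.65% in the CD49a-negative library and 1.84% against 3.399% in the unsorted library.

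**Figure D4:**
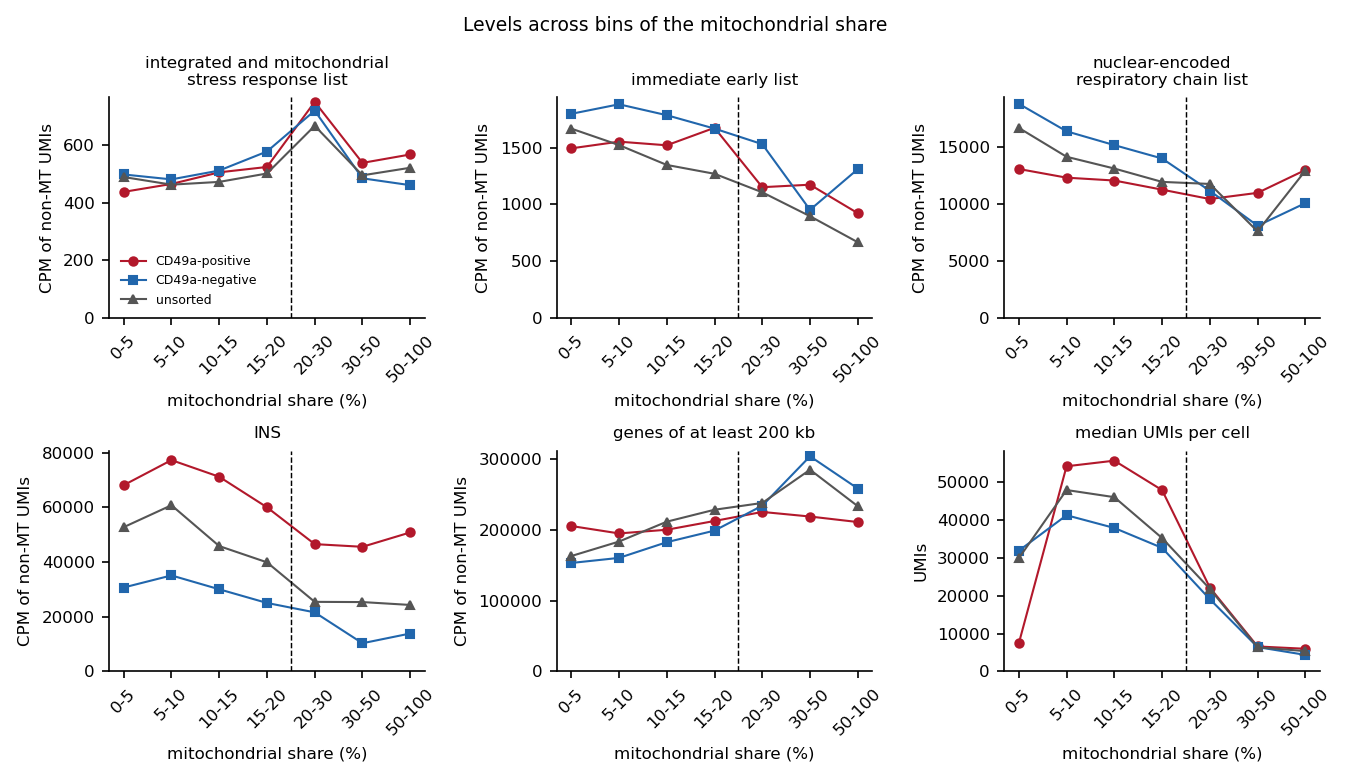
Levels over bins of the mitochondrial share (horizontal axis, percent of UMIs) in each library, in CPM of nuclear-gene UMIs or in UMIs as labelled on each axis. INS is lower above 20% in all 3 libraries, the stress response list is highest between 20 and 30%, and median UMIs per cell are lowest above 50%.

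Stress genes did not move as 1 block. The integrated stress response is a program in which several kinases slow protein synthesis and raise the transcription factor ATF4, and mitochondrial stress is one of its triggers. Its targets include enzymes of serine and one-carbon metabolism, amino acid transporters and regulators of cell death. Of 19 genes on the list of this response and of mitochondrial stress, 15 were measured, of which 11 stood higher and 2 lower in all 3 libraries, with a median log2 ratio of 0.62 (CD49a-positive), 0.49 (CD49a-negative) and 0.55 (unsorted). Over all 10435 measured genes 42.5% stood higher and 23.3% lower in all 3 libraries, and the counts of the lists that follow are to be set beside these shares. Some members passed the 10 CPM filter through the mitochondria-rich cells only, so the count gives no support. They were DDIT4 in the CD49a-positive and unsorted libraries, and CHAC1 in the CD49a-positive and CD49a-negative libraries. Without a filter on low genes the median over 17 of the 19 listed genes was 0.59, 0.48 and 0.55. Summed over the list, the level was 705 against 473 CPM, 659 against 496 CPM and 639 against 471 CPM.

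Over all cells, the enzymes of the program named here stood higher together. PSAT1 (chr9:78297143-78330093, plus strand), the aminotransferase of serine synthesis, stood at 46.1 against 12.9 CPM in the CD49a-positive library, 28.3 against 10.2 CPM in the CD49a-negative library and 33.3 against 11.15 CPM in the unsorted library. PHGDH, the enzyme before it in the pathway, stood at 41.4 against 23.35 CPM, 41.2 against 26.1 CPM and 42.6 against 24.8 CPM. MTHFD2, an enzyme of mitochondrial one-carbon metabolism, stood at 102 against 61.7 CPM, 80.45 against 43.0 CPM and 77.8 against 50.15 CPM. PSAT1 was found in 25 of 130, 28 of 178 and 31 of 187 mitochondria-rich cells, so its sums rest on 88, 59 and 86 UMIs. SHMT2, another one-carbon enzyme, and LONP1, a protease of the mitochondrial matrix, stood higher in all 3 libraries too, with log2 ratios of 0.53 to 0.74 and 0.46 to 0.71. Within beta-like cells the log2 ratios were 0.19, 0.57 and 1.365 for PSAT1 and 0.12, -0.11 and 0.37 for MTHFD2. Within enterochromaffin-like cells they were -0.95, 1.14 and 0.565 for PSAT1 and -2.315, 0.50 and -0.19 for MTHFD2. The CD49a-positive values of that class rest on 0 UMIs in 7 mitochondria-rich cells.

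The regulators of the program followed in part. TRIB3, a pseudokinase that feeds back on the response, stood at 32.5 against 14.3 CPM, 36.9 against 16.2 CPM and 27.1 against 15.4 CPM, and DDIT3, the transcription factor CHOP, at 75.9 against 40.8 CPM, 74.2 against 50.4 CPM and 56.1 against 40.8 CPM. CHAC1, which breaks down glutathione, stood at 19.9 against 9.87 CPM, 17.7 against 9.78 CPM and 20.5 against 10.4 CPM. ATF4 messenger RNA itself differed little, with log2 ratios of 0.08, -0.15 and -0.11, and the response is known to act mainly on its translation. PPP1R15A, which ends the response, and CLPP, the matrix protease subunit, stood lower in all 3 libraries, with log2 ratios of -0.14 to -0.28 and -0.14 to -0.62. SLC7A11, the cystine transporter that ATF4 is also known to control, was on the oxidative stress list and stood at 34.0 against 11.55 CPM, 29.2 against 7.57 CPM and 24.0 against 8.47 CPM. FGF21 and NUPR1 had no UMI in any mitochondria-rich cell.

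Promoter sequences of 2 of these genes are shown because both stood higher in every library while only 1 of them holds the element that binds ATF4 with C/EBP factors. They are RefSeq windows on GRCh38.p14 that run from 250 bases before to 50 after the start, 5′ to 3′ on the plus strand, and the capitals mark the match to TGATGNAA, which in CHAC1 (chr15:40953221-40953520) lies on the minus strand and in PSAT1 (chr9:78296875-78297174) has no match on either strand.
CHAC1: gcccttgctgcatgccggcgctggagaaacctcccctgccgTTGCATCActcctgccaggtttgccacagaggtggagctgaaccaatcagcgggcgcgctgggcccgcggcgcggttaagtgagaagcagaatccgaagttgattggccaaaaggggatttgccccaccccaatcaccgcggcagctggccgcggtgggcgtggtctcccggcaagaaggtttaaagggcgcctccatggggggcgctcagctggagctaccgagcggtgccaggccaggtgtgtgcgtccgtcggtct
PSAT1: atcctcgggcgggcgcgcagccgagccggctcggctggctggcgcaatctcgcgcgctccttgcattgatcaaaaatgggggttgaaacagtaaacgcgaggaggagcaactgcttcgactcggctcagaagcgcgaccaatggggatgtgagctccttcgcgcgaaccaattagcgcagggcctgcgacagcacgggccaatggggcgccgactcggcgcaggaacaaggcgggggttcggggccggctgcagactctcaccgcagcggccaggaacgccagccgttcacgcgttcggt
Of the 19 listed genes, 16 had windows, 25 windows in all, and 3 genes held a match, namely CHAC1, ASNS and FGF21. Over all 35116 promoter windows of the table, 1270 (3.62%) held one on either strand. A match is a run of letters, not a site shown to be bound.

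The stress response list was not evenly spread among mitochondria-rich cells. Its summed level was 750, 720 and 667 CPM between 20 and 30% mitochondrial UMIs in the CD49a-positive, CD49a-negative and unsorted libraries, 538, 485 and 495 CPM between 30 and 50%, and 567.5, 461 and 521 CPM above 50%. Just under the limit, between 15 and 20%, it was 524, 578 and 501.5 CPM. The mean of the 3 list medians was 0.55 in all cells, 0.77 among cells with at least 20000 nuclear-gene UMIs, 0.16 for members above 30% and 0.11 when each cell was weighted equally. Within beta-like cells the list median was 0.19, -0.01 and 0.46, and within enterochromaffin-like cells -0.17, 0.27 and 0.03, so no library's value held its size in both classes. DDIT4, a stress-induced inhibitor of mTORC1, was higher within beta-like cells, at 17.3 against 6.30 CPM, 42.3 against 7.82 CPM and 44.9 against 7.70 CPM, on 10, 10 and 19 UMIs. Within enterochromaffin-like cells it stood at 29.4 against 6.08 CPM on 3 UMIs in the CD49a-positive library, at 10.8 against 9.59 CPM in the CD49a-negative library and at 5.49 against 8.09 CPM in the unsorted library.

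The other stress lists stood lower. Of 10 immediate early genes, which respond within minutes to stimuli and to tissue dispersal, none stood higher and 9 stood lower in all 3 libraries, with a median log2 ratio of -0.59, -0.49 and -0.70. FOS stood at 120 against 190 CPM, 105 against 189.5 CPM and 67.0 against 157 CPM, JUNB at 39.8 against 77.7 CPM, 66.6 against 114 CPM and 42.6 against 78.5 CPM, and BTG2, an antiproliferative early gene, at 60.2 against 99.0 CPM, 50.8 against 104 CPM and 39.5 against 86.6 CPM. Within beta-like cells the list median was -0.26, -0.08 and -0.08. Of 10 measured heat shock genes 9 stood lower in all 3 libraries, with a median of -0.17, -0.47 and -0.25. HSPB1, the lowest of them, passed the 10 CPM filter in the CD49a-positive library through the other cells only (7.33 against 13.2 CPM), so this count gives no support. Of 19 genes of the unfolded protein response, which handles misfolded protein in the endoplasmic reticulum, 4 stood higher and 14 lower, with a median of -0.20, -0.44 and -0.41. HSPA5, the chaperone BiP, was lower within beta-like cells, with log2 ratios of -0.64, -0.31 and -0.80, and within enterochromaffin-like cells, with -0.67, -1.05 and -0.92.

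The remaining stress lists showed little. The 8 measured genes of the p53 and apoptosis list had medians of -0.01, -0.09 and 0.04, and the 8 of hypoxia and glycolysis 0.01, -0.23 and -0.16. Of 12 measured oxidative stress genes, 2 stood higher and 7 lower in all 3 libraries. This count gives no support either, since SLC7A11, the highest of them, passed the 10 CPM filter in the CD49a-negative and unsorted libraries through mitochondria-rich cells only. TXNIP, an inhibitor of thioredoxin that glucose is known to raise, was at the other end, at 52.9 against 89.6 CPM, 43.1 against 88.3 CPM and 35.2 against 74.4 CPM.

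Genes of the nucleus that supply the respiratory chain did not follow the mitochondrial transcripts. Of 53 such genes, 2 stood higher and 45 lower in all 3 libraries, with a median log2 ratio of -0.17 (CD49a-positive), -0.63 (CD49a-negative) and -0.31 (unsorted). Their summed level was 10600 against 12280 CPM, 10430 against 16550 CPM and 11250 against 14240 CPM. The longest of these genes spans 61084 bases. Within beta-like cells the median was 0.01, -0.31 and -0.13, and within enterochromaffin-like cells -0.505, -0.995 and -0.472. The 20 measured regulators of mitochondrial RNA and DNA, such as polymerases and RNA-processing factors, were near the background with medians of 0.17, 0.08 and 0.06, and the 22 genes of mitochondrial dynamics and protein import had medians of -0.10, -0.36 and -0.19. Among islet transcription factors, whose medians were -0.09, 0.00 and -0.05, MLXIPL, the glucose-sensing factor ChREBP, stood at 139 against 85.3 CPM, 103 against 58.9 CPM and 117 against 71.5 CPM.

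The mitochondrial transcripts themselves were mixed in other proportions. Their sum chose the cells, but their proportions to each other did not. MT-CO2, which encodes a core subunit of cytochrome c oxidase, made up 16.4% of mitochondrial UMIs in mitochondria-rich CD49a-positive cells against 21.9% in the other cells, 16.1% against 22.9% in the CD49a-negative library, and 16.4% against 22% in the unsorted library. MT-ND2, a core subunit of complex I, made up 7.72% against 4.72%, 8.07% against 4.49% and 8.20% against 4.82%, and MT-ND5, another core subunit of complex I, 2.05% against 1.23%, 2.40% against 1.33% and 2.48% against 1.47%. MT-CO1 stood lower as MT-CO2 did, at 12.1% against 14.7%, 12.6% against 16.2% and 11.7% against 15.04%. MT-ATP6, of ATP synthase, stood at 17.1% against 14.4%, 16.8% against 13.9% and 16.4% against 13.8%.

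The last 60 annotated bases of 4 of these genes are shown, since the annotated sequences differ in how their stop codons are encoded. For MT-CO1, MT-CO2 and MT-ND5 the annotation ends at the stop codon. Any RNA past it is not shown, so these are not the measured ends of the transcripts. The sequences are from GENCODE release 29 on GRCh38, plus strand of the mitochondrial genome, and the capitals mark the bases of the stop codon that the genome encodes.
MT-CO2: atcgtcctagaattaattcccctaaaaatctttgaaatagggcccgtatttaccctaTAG
MT-CO1: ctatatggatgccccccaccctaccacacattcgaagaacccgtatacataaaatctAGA
MT-ND2: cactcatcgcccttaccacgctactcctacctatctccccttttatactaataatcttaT
MT-ND5: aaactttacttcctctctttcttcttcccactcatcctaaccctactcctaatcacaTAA
The annotated MT-ND2 sequence ends in the first base of its stop codon, which is completed by the added A bases of the RNA's tail, while the other 3 encode the whole codon. No relation between these ends and the proportions was tested.

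The shift in proportions was larger in sums than in single cells. The median cell had 4.79% MT-ND2 among its mitochondrial UMIs in mitochondria-rich CD49a-positive cells against 4.14% in the other cells, 4.71% against 3.68% in the CD49a-negative library and 5.17% against 3.87% in the unsorted library. For MT-CO2 the medians were 17.6% against 19.6%, 16.7% against 18.9% and 16.8% against 19.5%. MT-ND2 was highest between 20 and 30%, at 8.67, 8.09 and 8.64% of mitochondrial UMIs, and had reached 6.57, 6.24 and 6.96% between 15 and 20%, while above 50% it was 4.87, 7.07 and 6.16%. Both directions were present within classes. Within beta-like cells MT-ND2 stood at 7.31% against 5.32%, 5.91% against 5.24% and 9.07% against 5.52%, and MT-CO2 at 16.7% against 20.4%, 15.3% against 18.6% and 15.2% against 19.8%.

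**Figure D5:**
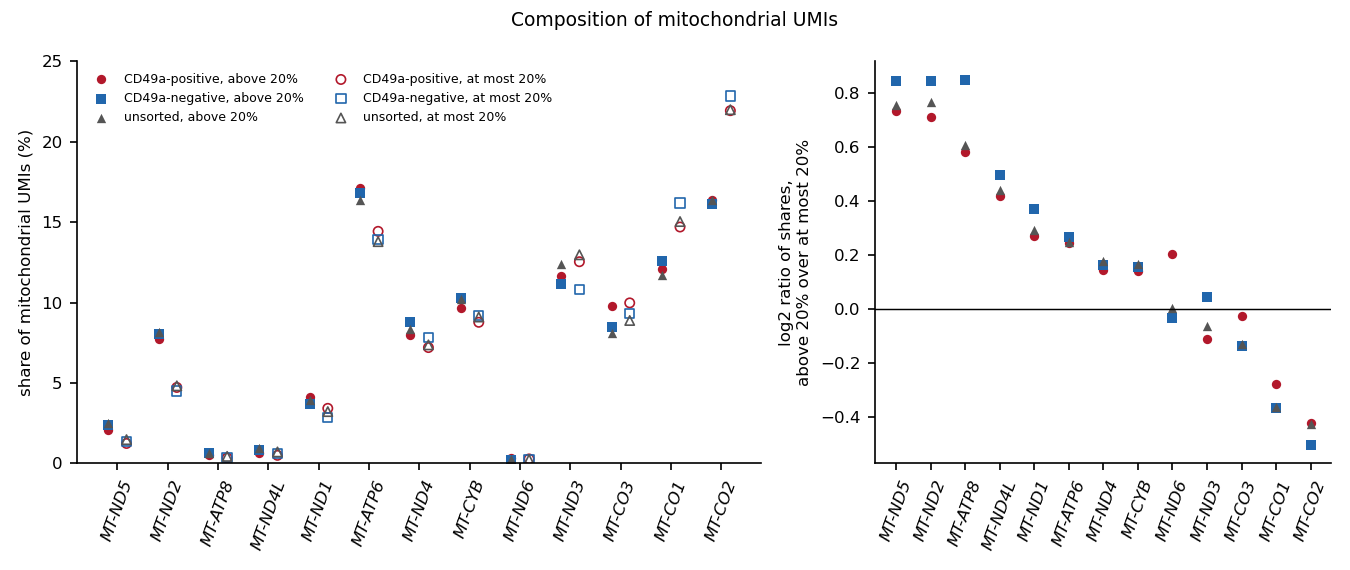
Left, percent of mitochondrial UMIs from each of the 13 mitochondrial genes in mitochondria-rich and other cells. Right, log2 ratio of those percentages, 1 point per library. MT-ND2 and MT-ND5 lie above 0 and MT-CO1 and MT-CO2 below 0 in all 3 libraries.

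Markers of most cell types outside the islet were low in mitochondria-rich cells. No gene of the acinar, mesenchymal, pluripotency, hepatic and intestinal or proliferating lists reached 10 CPM in the higher group of every library. The 8 proliferation markers summed to 9.43, 18.7 and 6.97 CPM in the mitochondria-rich cells of the CD49a-positive, CD49a-negative and unsorted libraries, against 33.4, 75.2 and 56.9 CPM in the other cells, and the 7 acinar markers to 3.14, 6.70 and 4.26 CPM against 7.83, 1.13 and 1.11 CPM. The 6 duct markers summed to 51.3, 50.8 and 68.9 CPM against 55.8, 95.3 and 73.2 CPM, and the 4 neural markers to 621, 607 and 625.5 CPM against 781, 795 and 796 CPM. Depth, class makeup and the sort all moved with the mitochondrial share, with 1 library per group. Their parts in the gene-level differences beyond the class and depth settings given here were not tested.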

How the data were processed

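The deposited files hold UMI counts per gene and barcode for 36601 genes, produced by the authors using Cell Ranger 7.1.0 and GRCh38, per the submitters' processing notes. The annotation release and the counting of introns are not given in the sources used here. Positions came from GENCODE release 29, matched by identifier for 34616 genes (94.6%). Members and gene lists were chosen with earlier results of these data known. Groups followed the sorting labels. Counts were summed per library over mitochondria-rich and other cells, scaled to CPM of UMIs outside the 13 mitochondrial genes, and compared as log2 ratios with 10 CPM added. With 1 library per group no test was made.

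A gene was called when it differed at least 2-fold the same way in all 3 libraries, among genes with at least 50 CPM and 50 UMIs in the higher group of every library, and lists used genes with at least 10 CPM there. This filter can pass a gene through the group where it is high. Named genes were those called, the 12 highest and 12 lowest by their smallest ratio over the libraries, and list members. Genes within classes, NIBAN1, the 1.5-fold counts and the values without the fullest cell were chosen after the values were seen.

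Clusters were made without mitochondrial genes, from counts scaled to 10000 per cell, 2000 variable genes, 30 principal components, 20 neighbours and Leiden resolution 1 (seed 0), and named where at least 3 markers stood higher and led the next class by 0.5 log2 units, a rule set after the clusters were seen. Proliferating clusters needed at least 5 markers. No doublet caller was used, since an automatic one had marked too few cells in these data, and pairs of cells may remain. Python 3.11.15, numpy 2.4.6, scipy 1.17.1, pandas 2.3.3, scanpy 1.11.5, anndata 0.12.19, igraph 0.11.9, scikit-learn 1.9.0 and matplotlib 3.10.9 were used. The alternatives were other limits, gene minimums, scalings, pseudocounts, depths, cell weights and comparison cells.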

Additional observations from a re-analysis of the deposited data

Results flagged for a closer look

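Barcodes under the minimum of 1000 genes lay outside the comparisons, and many of them were also above 20% mitochondrial UMIs. They made up 15.5% of all barcodes in the CD49a-positive library (701 of 4512, 14.5 to 16.6%) and 11.5% in the CD49a-negative library (294 of 2566, 10.3 to 12.8%), against 7.76% in the unsorted library (218 of 2811, 6.79 to 8.81%). In all 3 libraries they outnumbered the mitochondria-rich cells described above, and their identity was not analysed here.

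GC, the gene of the vitamin D binding protein and a marker of alpha cells, had opposite signs in the sorted libraries, with a log2 ratio of mitochondria-rich over other cells of 0.94 in the CD49a-positive and -1.52 in the CD49a-negative library. The difference was not tested. Of the GC UMIs of mitochondria-rich CD49a-positive cells 67.2% came from 1 cell, and without it the ratio was -0.30.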

How the results depend on the processing

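No paired analysis was possible because each group has 1 library and replicate numbers do not link them. Of 19 planned and 9 added alternatives (the added ones chosen after seeing the data), none turned the direction of the hormone, respiratory chain, immediate early or stress response list. Counts are genes 2-fold higher and lower in all 3 libraries (2 and 1 as reported), and list values are the mean of the 3 list medians.

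At mitochondrial limits of 15%, 25% and 30% the higher genes numbered 1, 6 and 13, the lower ones 1, 2 and 4, the immediate early list stood at -0.31, -0.72 and -0.76, and the stress response list at 0.27, 0.36 and 0.12. The share of cells above the limit was 9.03, 3.45 and 2.65% (CD49a-positive), 14.9, 5.85 and 4.27% (CD49a-negative) and 14.9, 4.87 and 3.60% (unsorted), and at 15% the beta marker list turned to 0.0084. With at least 500 genes these shares were 7.05, 11.3 and 10.1%, with 1 gene higher, and with at least 2000 genes 3.81, 6.14 and 5.93%, with 2 lower. Members between 20 and 30% alone gave 5 genes higher and 2 lower, and members above 30% alone gave 15 and 4, with -0.77 for immediate early and 0.16 for stress response genes.

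Scaling to all UMIs lowers every nuclear gene of mitochondria-rich cells by construction and gave 0 genes higher and 6 lower. It moved the median of all genes to -0.20 and gave -0.72 for the respiratory chain, -0.89 for immediate early and 0.25 for stress response genes, while the mitochondrial RNA and DNA regulators turned to -0.15, MALAT1 to -0.15, NDUFV1 to -0.12 and RPL13A to -0.062. Median-of-ratios scaling gave 1 higher, 2 lower, 0.47 for stress response genes and -0.0065 for all genes. Adding 1 CPM gave 6 higher, 2 lower and 0.70 for stress response genes, and adding 50 CPM 0 higher, -0.40 for immediate early and 0.27 for stress response genes. Without a filter on low genes 4 were higher and 2 lower, with -0.40 for immediate early genes and -0.0030 for all genes.

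Weighting each cell equally gave 64 genes higher, 2 lower and 0.11 for stress response genes, and turned NDUFV1 to -0.067 and RPL13A to -0.037. Thinning to 5000 nuclear-gene UMIs gave 4 lower, -0.73 for immediate early and 0.28 for stress response genes. Cells of 5000 to 20000 such UMIs gave 1 higher, 3 lower, -1.62 for hormones, -0.45 for immediate early and 0.34 for stress response genes, and turned the beta markers to 0.19, hypoxia genes to 0.014 and BBC3 to -0.17. Cells of at least 20000 gave 2 lower, -0.39 for immediate early, 0.77 for stress response and 0.060 for hypoxia genes. Other cells at or under 10% gave 7 higher and 2 lower, and cells led by INS gave 1 higher, 2 lower and 0.48 for stress response genes. Leaving out clusters 9 and 15, or cluster 14, gave 2 lower.

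Beta-like cells alone gave 0 genes higher and 0 lower, -0.14 for immediate early and 0.21 for stress response genes, and turned COL5A2 to -0.32, GHRL to 0.14, HSPB1 to 0.44, KRT19 to 0.044, MNX1 to -0.15 and P4HA1 to -0.061. Enterochromaffin-like cells alone gave 0 higher and 17 lower, -0.66 for the respiratory chain and 0.044 for stress response genes, and turned the enterochromaffin markers to -0.23, all genes to -0.0028, BBC3 to -0.31, GHRL to 0.051, MNX1 to -0.056, NDUFV1 to -0.22 and TPH1 to -0.36. Leaving out 1 library gave 2 to 55 genes higher and 1 to 10 lower, with 55 and 10 without the CD49a-positive library. The cause of these shifts was not tested.

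Few UMIs limit the mitochondria-rich side: 73 of 130, 105 of 178 and 112 of 187 such cells had at least 5000 nuclear-gene UMIs, and levels near 10 CPM rest on about 20 UMIs.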

Other observations

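Genes of prohormone processing and of the secretory granule were split in mitochondria-rich cells. Of 17 such genes, 5 stood higher and 10 lower in all 3 libraries, beside 42.5% and 23.3% of all measured genes, with a median log2 ratio of -0.18 (CD49a-positive), -0.34 (CD49a-negative) and -0.33 (unsorted). Within beta-like cells the median was -0.35, -0.71 and -0.32, and within enterochromaffin-like cells -0.60, -0.52 and -0.53, so the median was below 0 in both classes. Among those higher was SYT7, a calcium sensor of exocytosis, with log2 ratios of 0.52, 0.33 and 0.25, and among those lower was SCG2, a granin, with -0.56, -1.14 and -0.57. Only SCG5 differed 1.5-fold in all 3 libraries. The 2 measured metallothioneins, metal-binding stress proteins, had medians of -0.89, -0.14 and -0.20, on summed levels of 21.5 against 72.3 CPM, 68.95 against 105 CPM and 44.9 against 55.2 CPM for the 7 listed.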
